A study of Mus musculus with 12 samples.

Results

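The alpha-arrestins Arrdc1, Arrdc2, Arrdc3, Arrdc4 and Txnip were followed in mouse ear fibroblasts on 4 kinds of alginate gel. They were taken as a gene family by name, 5 of the 33246 genes in the count table, and all 5 passed the filter on low counts that left 14542 genes for testing. Arrdc3 was chosen by its lower level on 20-kPa viscoelastic gels in these same samples, so its values in every comparison with a 20-kPa group are given as a description, with no test. The comparison of Arrdc3 between the 2-kPa groups compared no 20-kPa sample and was tested. Its scaling and spread came from a fit of all 12 samples, so the 20-kPa values enter its test. The gene was chosen with earlier results of these data known, so this test is not independent of the choice. A further alpha-arrestin, Arrdc5, had 1 count in 1 sample (2-kPa viscoelastic replicate 2) and 0 in the other 11, and was not tested.

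The fibroblasts came from ears of 1-month-old C57BL/6 mice of both sexes and were plated at passage 2 on alginate coupled to the adhesion peptide RGD. Gels of 2 or 20 kPa were either elastic (covalently crosslinked) or viscoelastic (crosslinked by calcium ions, with slow stress relaxation), and polyadenylated RNA was sequenced after 48 h. Each of the 4 groups (2-kPa elastic, 20-kPa elastic, 2-kPa viscoelastic, 20-kPa viscoelastic) had 3 biological replicates. Whether these were separate mice is not given in the sources used here, so the tests measure the spread between these samples.

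Alpha-arrestins are adaptor proteins with the arrestin fold and, in most members, short PPxY motifs that bind the WW domains of NEDD4-family ubiquitin ligases. Through these ligases they direct membrane proteins such as receptors and nutrient transporters into endocytosis and lysosomal breakdown. Txnip binds thioredoxin and restrains glucose uptake, and with Arrdc4 it is a classical target of the glucose-sensing factors MondoA and ChREBP. Arrdc3 is known as an adaptor for beta-adrenergic receptors and integrin beta-4, and Arrdc1 for driving vesicle budding at the plasma membrane with the ESCRT protein Tsg101.

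Totals ran from 36626221 to 43612804 counts per sample. Levels are CPM after TMM scaling, and fold changes are on the log2 scale from edgeR's quasi-likelihood test with Benjamini-Hochberg adjustment over the 14542 tested genes (called at adjusted p under 0.05). The 9 fibroblast markers, led by Col3a1, Col1a1 and Col1a2, summed to between 23720 and 29260 CPM. The 4 chondrocyte markers were also high, with Col2a1 between 2396 and 3471 CPM, Acan between 854.1 and 1611 CPM, Sox9 between 367.4 and 535.1 CPM and Col9a1 between 179.9 and 376.7 CPM. The chondrocyte sum was 4372 to 5577 CPM on 2-kPa elastic, 4217 to 5333 CPM on 2-kPa viscoelastic, 3972 to 4067 CPM (elastic) and 4085 to 5412 CPM (viscoelastic) at 20 kPa. At 20 kPa this sum did not overlap between the gel types, and neither did the fibroblast sum (23720 to 25700 CPM on elastic, 27080 to 29260 CPM on viscoelastic gels). The 4 macrophage markers summed to 5.903 to 7.737 CPM on 2-kPa elastic against 4.868 to 5.427 CPM on 2-kPa viscoelastic gels. At 20 kPa the sums were 4.739 to 6.829 CPM against 4.189 to 4.686 CPM. Most of this sum was Cd68 (2.834 to 6.975 CPM), while Csf1r reached at most 1.249 CPM, Ptprc 0.5917 CPM and Adgre1 0.1825 CPM. The 3 adipocyte markers, nearly all Fabp4, summed to 7.935 to 10.93 CPM on elastic and 5.048 to 6.195 CPM on viscoelastic gels of 2 kPa, and overlapped at 20 kPa (4.879 to 6.015 CPM on elastic, 4.521 to 6.822 CPM on viscoelastic gels). The 3 Schwann markers stayed between 2.326 and 4.226 CPM, keratinocyte, endothelial, melanocyte and skeletal muscle sums at or under 1.263 CPM, and Tyr was at 0 in every sample. The part of these cell type markers in the results below was not tested. In bulk RNA, fewer cells of a type and less RNA per cell cannot be told apart.

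Txnip and Arrdc3 made up most of the family's RNA. Per kilobase of exon, which allows genes to be compared, Txnip averaged 27.07 to 30.74 CPM per kb over the 4 groups and Arrdc3 8.406 to 14.12 CPM per kb. Arrdc4 followed at 2.407 to 2.87 CPM per kb, Arrdc1 at 1.619 to 1.849 CPM per kb and Arrdc2 at 1.172 to 1.591 CPM per kb. This order of group means held in each of the 4 groups, although the samples of Arrdc1 and Arrdc2 overlapped on both kinds of viscoelastic gel. Counting error was small for Txnip (1.63% of its mean of 3751 counts) and Arrdc3 (1.83% of 2986) and larger for Arrdc4 (4.8% of 434.8), Arrdc1 (7.44% of 180.8) and Arrdc2 (7.45% of 180.2). The spread between replicates was 4.34% for Txnip, 6.76% for Arrdc3, 9.65% for Arrdc1, 10.8% for Arrdc4 and 11.7% for Arrdc2, beside a median of 7.89% over all tested genes.

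**Figure D1:**
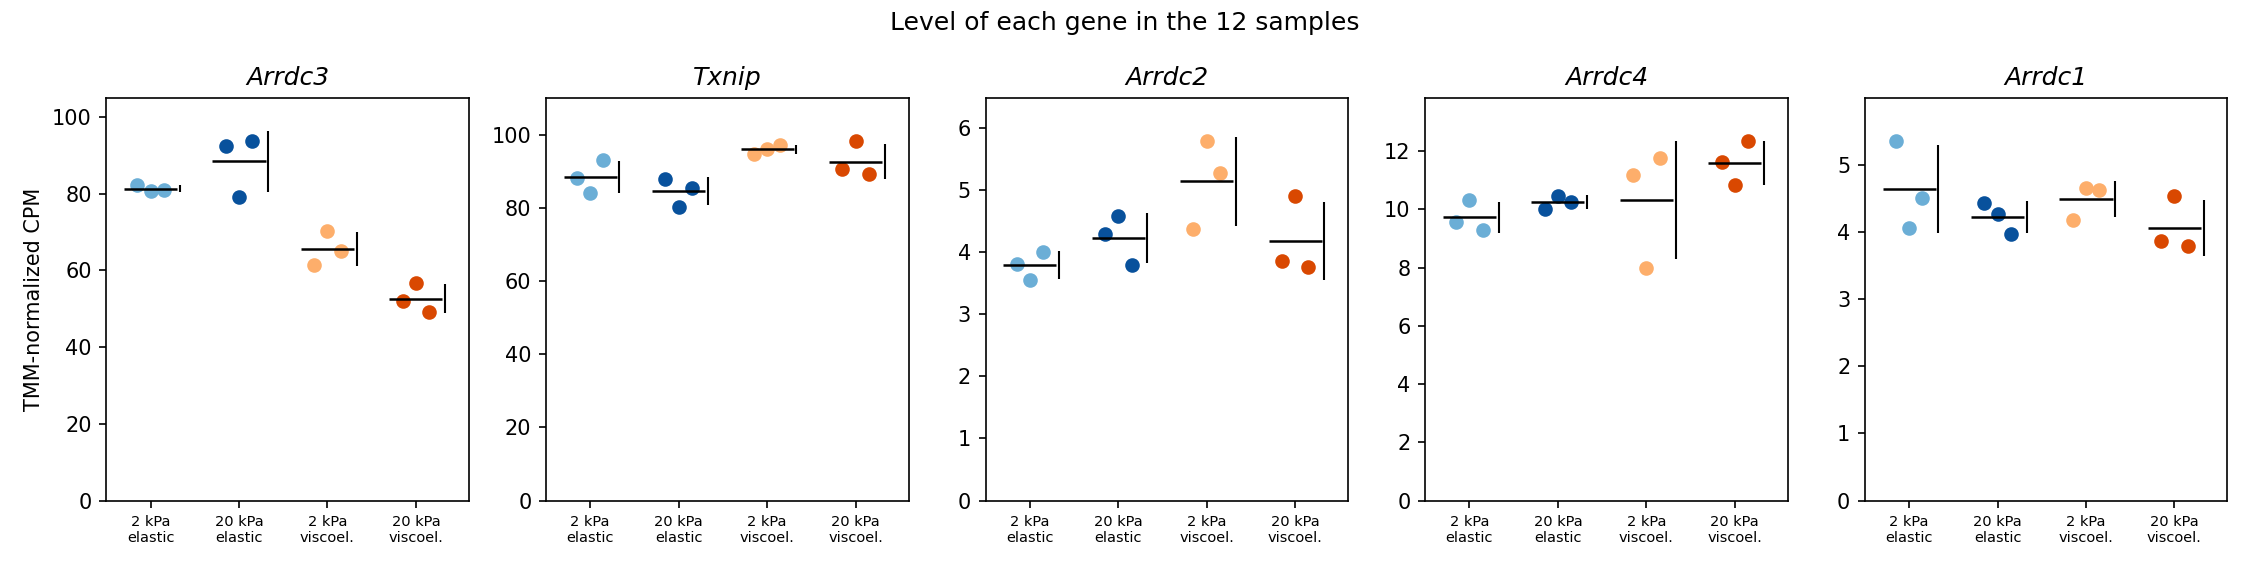
TMM-normalized CPM (vertical axis, from 0, a scale of its own for each gene) of Arrdc3, Txnip, Arrdc2, Arrdc4 and Arrdc1 in the 12 samples, grouped by gel on the horizontal axis. Points are samples in the order of replicates 1 to 3, horizontal lines are means of 3 and vertical lines span 1 SD to each side. Arrdc3 lies between 79.28 and 93.73 CPM on elastic gels and between 49.19 and 70.4 CPM on viscoelastic gels.

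Arrdc3 lies on chromosome 13 (mm10, 80883384 to 80896042, plus strand), with 6266 bp of exon. Its level was 82.3, 80.62 and 81.11 CPM on 2-kPa elastic gels (81.34 ± 0.865, SD, n = 3). On 2-kPa viscoelastic gels it was 61.55, 70.4 and 65.09 CPM (65.68 ± 4.45, SD, n = 3). All 3 viscoelastic samples were below all 3 elastic ones, and the gene was down-regulated to 0.807 of the elastic level (log2 fold change -0.31, SE 0.0735, edgeR adjusted p = 0.00831). On 20-kPa elastic gels the level was 92.43, 79.28 and 93.73 CPM (88.48 ± 7.996, SD, n = 3). On 20-kPa viscoelastic gels, the values it was chosen by, it was 52, 56.84 and 49.19 CPM (52.67 ± 3.87, SD, n = 3). In order of mean level the groups ran 20-kPa elastic, 2-kPa elastic, 2-kPa viscoelastic, 20-kPa viscoelastic. The 2 elastic groups overlapped, and each of the other neighbours in this order was separated sample by sample. As a description, the log2 fold change was -0.75 for viscoelastic against elastic at 20 kPa. For 20 against 2 kPa it was 0.12 on elastic and -0.32 on viscoelastic gels. The difference between the viscoelastic effects at 20 and at 2 kPa was -0.44.

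Txnip lies on chromosome 3 (mm10, 96557957 to 96561883, plus strand) and differed little between gels. Its level was 88.18, 84.14 and 93.02 CPM on 2-kPa elastic gels (88.45 ± 4.45, SD, n = 3) and 94.71, 96 and 97.26 CPM on 2-kPa viscoelastic gels (95.99 ± 1.27, SD, n = 3). At 20 kPa it was 87.83, 80.35 and 85.47 CPM on elastic gels (84.55 ± 3.83, SD, n = 3) and 90.63, 98.26 and 89.14 CPM on viscoelastic gels (92.68 ± 4.89, SD, n = 3). At each stiffness the 3 viscoelastic samples were above the 3 elastic ones. Neighbouring groups overlapped in the order of means, which ran 2-kPa viscoelastic, 20-kPa viscoelastic, 2-kPa elastic, 20-kPa elastic. The change did not pass the test at 2 kPa (log2 fold change 0.12, SE 0.0591, edgeR adjusted p = 0.171) or at 20 kPa (0.13, SE 0.0591, edgeR adjusted p = 0.0963). With libraries scaled by total counts alone, the 20-kPa change passed at an edgeR adjusted p of 0.0487 (0.0487 to 0.328 over 19 alternatives). The mean of the 2 viscoelastic effects, a contrast added after the values were seen, was 0.13 (SE 0.0418, edgeR adjusted p = 0.0257), higher in 6 of 6 viscoelastic samples than the mean of their elastic group. That call was lost without 2-kPa elastic replicate 1 (edgeR adjusted p = 0.051), 2-kPa elastic replicate 2 (0.0772), 20-kPa elastic replicate 2 (0.0763), 2-kPa viscoelastic replicate 3 (0.0525) or 20-kPa viscoelastic replicate 2 (0.0707), with a range of 0.00841 to 0.0772 over 18 alternatives. Stiffness gave -0.06 on elastic (95% interval -0.19 to 0.0607) and -0.05 on viscoelastic gels (-0.176 to 0.0746), and neither passed the test. Txnip shares 606 bp of exon with Gm15441, a gene on the opposite strand, and the strand setting of the counting is not stated. Gm15441 had 4 to 16 counts per sample, at most 0.397% of those of Txnip.

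Arrdc2, on chromosome 8 (mm10, 70835129 to 70839720, minus strand), was up-regulated on 2-kPa viscoelastic gels. Its level was 3.809, 3.551 and 4.009 CPM on 2-kPa elastic gels (3.79 ± 0.230, SD, n = 3) and 4.37, 5.787 and 5.273 CPM on 2-kPa viscoelastic gels (5.143 ± 0.717, SD, n = 3). The samples did not overlap, and the ratio was 1.36 (log2 fold change 0.44, SE 0.135, edgeR adjusted p = 0.0311). The call was lost without 2-kPa elastic replicate 1 (edgeR adjusted p = 0.0867), 2-kPa elastic replicate 2 (0.11), 2-kPa viscoelastic replicate 2 (0.112) or 2-kPa viscoelastic replicate 3 (0.0849), and its adjusted p ran from 0.0126 to 0.112 over 19 alternatives. At 20 kPa the level was 4.296, 4.584 and 3.797 CPM on elastic gels (4.226 ± 0.399, SD, n = 3) and 3.861, 4.898 and 3.762 CPM on viscoelastic gels (4.174 ± 0.629, SD, n = 3). These groups overlapped, with a log2 fold change of -0.02 (95% interval -0.305 to 0.269, edgeR adjusted p = 0.931). The viscoelastic effects at 20 and 2 kPa differed by -0.46 (SE 0.191), which did not pass the interaction test (edgeR adjusted p = 0.164). The difference of 20 from 2 kPa on viscoelastic gels did not pass either (log2 fold change -0.30, SE 0.133, edgeR adjusted p = 0.234).

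Arrdc4, on chromosome 7 (mm10, 68736995 to 68749241, minus strand), passed the test in none of the 5 planned comparisons. Its level was 9.57, 10.31 and 9.28 CPM on 2-kPa elastic gels and 11.19, 7.996 and 11.76 CPM on 2-kPa viscoelastic gels, where replicate 2 was the lowest of the 12 samples. At 20 kPa it was 10.02, 10.47 and 10.26 CPM on elastic gels and 11.61, 10.83 and 12.34 CPM on viscoelastic gels, with no overlap between the gel types (log2 fold change 0.18, SE 0.113, edgeR adjusted p = 0.242). The mean viscoelastic effect over both stiffnesses was 0.13 (SE 0.0804, edgeR adjusted p = 0.207). Without 2-kPa viscoelastic replicate 2 this mean effect was 0.21 and passed (edgeR adjusted p = 0.00952; 0.00952 to 0.472 over 18 alternatives). The corresponding value of Arrdc2 was 0.21 (SE 0.0957, edgeR adjusted p = 0.0906), and it passed without 2-kPa viscoelastic replicate 1 (edgeR adjusted p = 0.0327; 0.0327 to 0.245 over 18 alternatives).

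Arrdc1, on chromosome 2 (mm10, 24925352 to 24935252, minus strand), had overlapping samples in all 4 comparisons of 2 groups. Its level was 5.356, 4.065 and 4.503 CPM on 2-kPa elastic gels and 4.183, 4.658 and 4.629 CPM on 2-kPa viscoelastic gels. At 20 kPa it was 4.436, 4.265 and 3.969 CPM on elastic gels and 3.861, 4.544 and 3.787 CPM on viscoelastic gels. The log2 fold change of viscoelastic against elastic was -0.05 at 2 kPa (95% interval -0.307 to 0.209, edgeR adjusted p = 0.81) and -0.06 at 20 kPa (-0.316 to 0.206, edgeR adjusted p = 0.762).

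Counted together, 2 of the 5 genes passed at 2 kPa between gel types, Arrdc2 higher and Arrdc3 lower, where 19.9% of all tested genes passed (8.76% higher and 11.1% lower). The 2-kPa test of Arrdc3 is not independent of its choice, and of the 4 other genes only Arrdc2 passed. Of the 4 genes tested elsewhere (Arrdc3 excluded), 0 passed at 20 kPa between gel types with edgeR, where 33.3% of all genes did. The count was also 0 of 4 for 20 against 2 kPa on elastic gels (14.0% of all genes), for 20 against 2 kPa on viscoelastic gels (2.32%) and for the interaction (7.34%). At an unadjusted p under 0.05, 1 of the 4 was found at 20 kPa (Txnip), 0 for stiffness on elastic gels, 1 for stiffness on viscoelastic gels (Arrdc2) and 1 for the interaction (Arrdc2), and DESeq2 called 0 in each of these. For the mean viscoelastic effect 1 of 4 passed, Txnip, beside 40.1% of all genes (19.6% higher). The mean stiffness effect over both gel types, also added after the values were seen, called 0 of 4 (10.3% of all genes), and 0 at an unadjusted p under 0.05. For Arrdc4 it was 0.12 on the log2 scale (SE 0.0804, edgeR adjusted p = 0.364). All 6 of its 20-kPa samples lay above the mean of the 2-kPa group on the same gel type, but the samples overlapped on both gel types. By separation of the 3 and 3 samples, 3 of the 5 genes did not overlap between gel types at 2 kPa (Arrdc2 and Txnip higher, Arrdc3 lower), where 36.3% of all genes did not. Of the 4 genes other than Arrdc3, these were Arrdc2 and Txnip. Arrdc3 was left out of the other counts, since it was chosen by a 20-kPa group. Of the 4 remaining genes, Arrdc4 and Txnip were separated between gel types at 20 kPa (both higher), beside 49.9% of all genes. Between stiffnesses it was 0 of 4 on elastic gels (35.6%) and 0 of 4 on viscoelastic gels (22.3%). Arrdc3 itself overlapped between stiffnesses on elastic gels and was separated in the other 2 comparisons. The comparisons share groups, so their values are not independent.

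**Figure D2:**
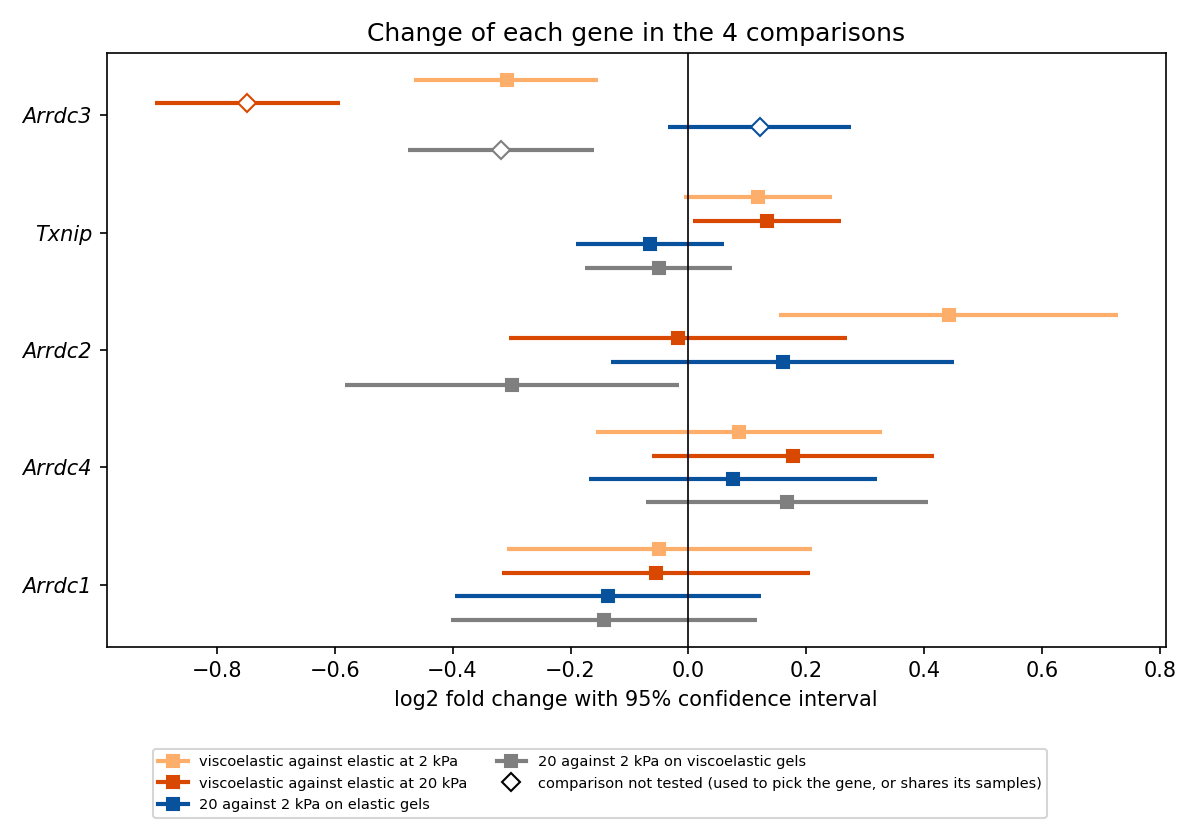
Log2 fold change (horizontal axis) of the 5 genes (vertical axis) in the 4 comparisons of 2 groups from the edgeR fit, with bars for 95% confidence intervals. Filled squares were tested and open diamonds, the 3 comparisons of Arrdc3 with a 20-kPa group, were not. The bars of the diamonds carry the values that Arrdc3 was chosen by and do not serve as a test. Only Arrdc3 and Arrdc2 at 2 kPa passed the adjusted test, at -0.31 and 0.44.

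The balance between Arrdc3 and Txnip within the family differed between the groups. The 5 genes summed to 46.73 ± 1.52 CPM per kb on 2-kPa elastic, 46.72 ± 2.32 on 20-kPa elastic, 47.15 ± 1.06 on 2-kPa viscoelastic and 43.86 ± 2.35 CPM per kb on 20-kPa viscoelastic gels (SD, n = 3 each). The share of Arrdc3 in this sum was 27.8% ± 0.811 on 2-kPa elastic and 22.22% ± 1.21 on 2-kPa viscoelastic gels (SD, n = 3). At 20 kPa it was 30.18% ± 1.38 on elastic and 19.15% ± 0.455 on viscoelastic gels. The share of Txnip was 60.58% ± 1.21, 65.19% ± 0.740, 57.96% ± 0.449 and 67.66% ± 0.0928 in the same order. The sample ranges of both shares did not overlap between any 2 groups. Shares are parts of one sum, so a lower share of Arrdc3 raises that of Txnip, and the separation of Txnip is not a further result. By level, Txnip averaged 29.68 CPM per kb on 20-kPa viscoelastic and 30.74 CPM per kb on 2-kPa viscoelastic gels. Its neighbouring groups overlapped in level. These shares carry the value that Arrdc3 was chosen by and were not tested.

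**Figure D3:**
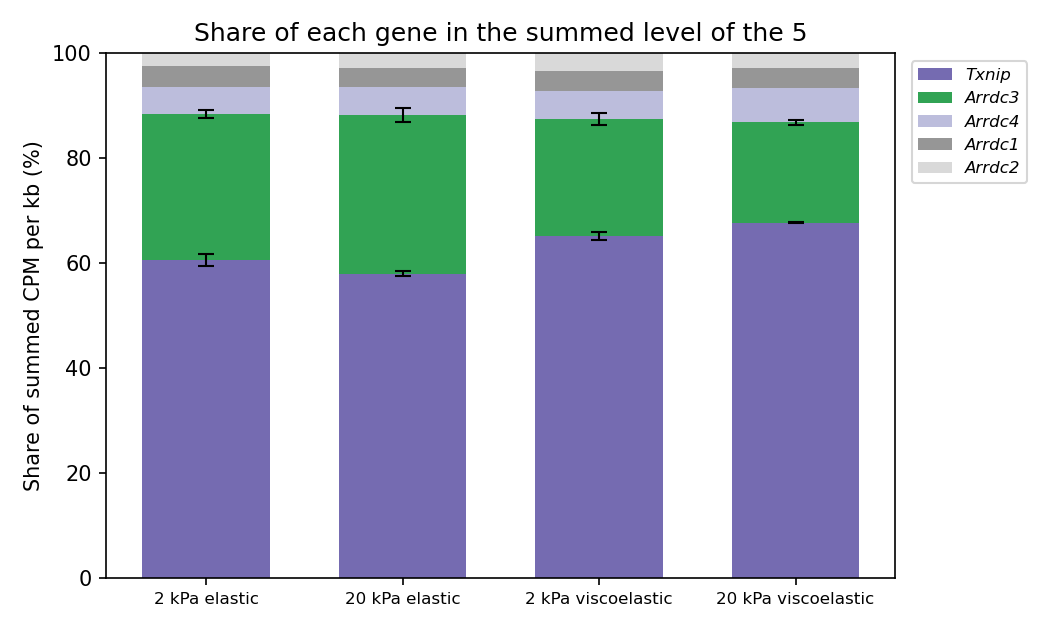
Share of each gene in the summed CPM per kb of the 5 genes (vertical axis, percent) on the 4 gels (horizontal axis), as means of 3 samples, with error bars of 1 SD on the upper edges of the Txnip and Arrdc3 segments. Txnip takes 57.96% to 67.66% and Arrdc3 19.15% to 30.18% of the sum.

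The sequences before the start sites of the 4 genes that separated between gel types are shown so that the letters near each start can be read beside the levels. RefSeq windows (GRCm38.p6, 250 bases before to 50 after a start) were matched for all 5 genes. For Arrdc3, which had further RefSeq starts, only the window nearest the annotated gene start was searched. The 250 bases before the start are printed 5′ to 3′ on the gene's strand, and capitals mark matches, on either strand, to CCAAT, to CACGTG (E-box), to TGTTTAC (FOXO site) and to paired CACGNG sites 5 bases apart (the carbohydrate response element arrangement bound by MondoA and ChREBP). The windows are chr3:96557707-96557956 (plus strand) for Txnip, chr7:68749239-68749488 (minus) for Arrdc4, chr13:80883134-80883383 (plus) for Arrdc3 and chr8:70839721-70839970 (minus) for Arrdc2.
Txnip: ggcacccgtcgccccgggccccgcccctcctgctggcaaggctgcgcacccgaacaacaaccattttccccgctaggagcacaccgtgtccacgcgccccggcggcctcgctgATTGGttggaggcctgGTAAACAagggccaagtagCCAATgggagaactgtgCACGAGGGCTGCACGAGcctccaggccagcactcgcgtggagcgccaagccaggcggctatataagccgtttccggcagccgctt
Arrdc4: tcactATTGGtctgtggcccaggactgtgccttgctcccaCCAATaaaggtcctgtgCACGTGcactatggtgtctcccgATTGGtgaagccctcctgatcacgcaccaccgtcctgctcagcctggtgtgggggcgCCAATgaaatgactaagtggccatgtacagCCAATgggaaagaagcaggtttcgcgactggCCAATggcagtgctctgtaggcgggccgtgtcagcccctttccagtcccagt
Arrdc3: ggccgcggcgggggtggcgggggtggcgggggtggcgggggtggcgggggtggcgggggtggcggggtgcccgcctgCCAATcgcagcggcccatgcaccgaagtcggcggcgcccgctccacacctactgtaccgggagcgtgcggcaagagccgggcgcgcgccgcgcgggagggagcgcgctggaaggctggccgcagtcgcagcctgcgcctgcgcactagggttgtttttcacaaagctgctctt
Arrdc2: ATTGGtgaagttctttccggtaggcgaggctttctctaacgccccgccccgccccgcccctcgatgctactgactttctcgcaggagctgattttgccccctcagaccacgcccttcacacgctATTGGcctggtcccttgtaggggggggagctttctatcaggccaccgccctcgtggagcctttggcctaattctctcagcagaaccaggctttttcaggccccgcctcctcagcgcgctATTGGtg

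Positions are counted back from the base before the start (-1) to the leftmost base of a match. Txnip held the paired sites, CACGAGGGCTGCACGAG, at -85, which 0.0487% of 32851 mouse windows of 300 bases hold (16 windows). It also held the FOXO letters, read as GTAAACA, at -121 (3.65% of windows). Arrdc4 held an E-box at -193 (7.15% of windows) and no paired sites. CCAAT, found in 37.4% of windows, occurred 6 times in Arrdc4, 3 times in Arrdc2, 2 times in Txnip, 1 time in Arrdc3 and 0 times in Arrdc1. None of the 5 windows held TATAAA (13.6% of windows), the CRE letters TGACGTCA (1.79%) or the glucocorticoid response letters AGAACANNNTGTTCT (0.00913%). The search was for these exact letters, so other forms of a site, such as a variant TATA box, were not counted. The GC content of the 250 bases was 76.0% for Arrdc3, 66.8% for Txnip, 62.0% for Arrdc1, 60.4% for Arrdc2 and 58.0% for Arrdc4, beside a median of 52.4% over all windows.

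Partners and regulators were taken as 70 genes in 8 lists, 65 of them tested. At 2 kPa between gel types, 8 were higher and 7 lower (23.1% of 65, beside 19.9% of all tested genes; median log2 fold change 0.01). At 20 kPa, 14 were higher and 13 lower (41.5%, beside 33.3%; median -0.05). On elastic gels 6 were higher and 8 lower at 20 than at 2 kPa (21.5%, beside 14.0%), on viscoelastic gels 0 and 1 (1.54%, beside 2.32%), and 6 passed the interaction test (9.23%, beside 7.34%).

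Among NEDD4-family ligases and their adaptors, which alpha-arrestins recruit, 1 of 10 tested genes changed between gel types at 2 kPa (19.9% of all genes). At 20 kPa 2 of 10 changed (33.3%). Nedd4l was lower on 2-kPa viscoelastic (76.98 ± 2.34 CPM, SD, n = 3) than on 2-kPa elastic gels (93.45 ± 4.48 CPM; log2 fold change -0.28, edgeR adjusted p = 0.00744). It was also lower on 20-kPa elastic gels (74.07 ± 6.79 CPM; -0.34, edgeR adjusted p = 0.00327). At 20 kPa Smurf1 was lower on viscoelastic gels (-0.36, edgeR adjusted p = 0.00325) and Hecw2 higher (0.28, edgeR adjusted p = 0.0475), although only 1 gene of the list passed with DESeq2 size factors. Nedd4 averaged 2680 to 2855 CPM in the groups, and its changes of 0.02 (2 kPa) and -0.07 (20 kPa) between gel types did not pass. Itch (101.5 to 112.4 CPM) and Wwp1 (56.08 to 62.66 CPM) passed in none of the planned comparisons. Wwp2 fell with stiffness on elastic gels from 630.3 to 494.2 CPM (-0.35, edgeR adjusted p = 0.0359) and did not pass between gel types. With total counts alone 1 gene of the list, in place of Nedd4l and Wwp2 together, passed for stiffness on elastic gels.

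In the thioredoxin system, the partner side of Txnip, 1 of 5 genes changed between gel types at 2 kPa (19.9% of all genes). At 20 kPa it was also 1 of 5 (33.3%). Txn1, thioredoxin itself, was higher on 2-kPa viscoelastic (149.6 ± 6.78 CPM, SD, n = 3) than on 2-kPa elastic gels (130.3 ± 1.18 CPM; log2 fold change 0.20, edgeR adjusted p = 0.0328). At 20 kPa its change was 0.14 and did not pass (edgeR adjusted p = 0.0874). Txnrd1, thioredoxin reductase, was lower on 20-kPa viscoelastic (157.6 ± 10.7 CPM) than on 20-kPa elastic gels (228.6 ± 36.0 CPM; -0.54, edgeR adjusted p = 0.00128). With total counts alone 4 of the 5 genes passed at 20 kPa. On elastic gels both genes were higher at 20 than at 2 kPa (0.28 for Txn1, edgeR adjusted p = 0.00695; 0.43 for Txnrd1, 0.0116).

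The MondoA and ChREBP complex induces Txnip and Arrdc4, and its list here also holds the related gene Max. Of the list's 3 tested genes, 0 changed at 2 kPa (19.9% of all genes) and 3 at 20 kPa (33.3%), in both directions. Mlxip, which encodes MondoA, was lower on 20-kPa viscoelastic gels (44.74 ± 2.05 CPM against 53.77 ± 2.495 CPM, SD, n = 3; log2 fold change -0.27, edgeR adjusted p = 0.00406). Its partner Mlx (0.20, edgeR adjusted p = 0.0374) and the related Max (0.23, 0.00575) were higher. Mlxipl, which encodes ChREBP, averaged at most 0.1428 CPM in a group and was removed by the filter. Of 8 glucose transporters and hexokinases tested, 0 changed at 2 kPa (19.9% of all genes) and 2 at 20 kPa (33.3%). Both, Hk1 (-0.18, edgeR adjusted p = 0.0435) and Hk2 (-0.26, 0.0207), were lower on viscoelastic gels. With total counts alone 1 gene passed at 20 kPa. Slc2a1, the glucose transporter that Txnip helps to remove from the membrane, did not pass at 2 kPa (log2 fold change 0.04, edgeR adjusted p = 0.782) or at 20 kPa (-0.24, 0.0602).

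Of 10 ESCRT genes, listed because Arrdc1 drives budding with Tsg101, 6 changed at 20 kPa between gel types, beside 33.3% of all tested genes. Vps28 (log2 fold change 0.27, edgeR adjusted p = 0.00396), Mvb12a (0.25, 0.00804) and Tsg101 (0.18, 0.0144) were among the 4 that were higher, and Pdcd6ip (-0.26, 0.00821) and Vps37a (-0.16, 0.0433) were lower. Tsg101, the direct partner of Arrdc1, averaged 50.79 CPM on elastic and 57.62 CPM on viscoelastic gels of 20 kPa. At 2 kPa only Vps37b of the list passed (-0.31, edgeR adjusted p = 0.0282), beside 19.9% of all tested genes. With total counts alone 0 of the 10 passed there.

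Of 7 beta-arrestin, GRK and beta-adrenergic receptor genes tested, 3 changed at 2 kPa (19.9% of all genes) and 2 at 20 kPa (33.3%). Adrb1, the beta-1 receptor, was higher on 2-kPa viscoelastic gels (8.103 ± 0.592 CPM against 5.568 ± 0.870 CPM, SD, n = 3; log2 fold change 0.54, edgeR adjusted p = 0.0181), as was the receptor kinase Grk5 (0.27, 0.0148). Grk6 was lower on viscoelastic gels at 2 kPa (-0.25, edgeR adjusted p = 0.0188) and at 20 kPa (-0.29, 0.00446). Arrb1, beta-arrestin 1, was lower at 20 kPa (-0.42, edgeR adjusted p = 0.0214).

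FOXO and glucocorticoid receptor targets were included because both kinds of factor are known to act on genes of this family. Of 14 FOXO factors and FOXO-induced genes, 3 were higher and 2 lower on viscoelastic gels at 2 kPa, where 19.9% of all genes changed. At 20 kPa 5 were higher and 1 lower, where 33.3% of all genes changed. Foxo4 (log2 fold change 0.21 at 2 kPa, edgeR adjusted p = 0.0184; 0.22 at 20 kPa, 0.00947) and the cyclin Ccng2 (0.30, 0.00441; 0.23, 0.0119) passed at both stiffnesses. Klf15 was higher at 20 kPa (0.59, edgeR adjusted p = 0.00414), and Foxo6 (-0.91, 0.0477) was lower at 2 kPa from a low level of 1.346 CPM. Sesn1 was lower at 2 kPa (-0.21, edgeR adjusted p = 0.0299) and higher at 20 kPa (0.34, 0.000967), and Cited2 was higher at 2 kPa (0.33, 0.0253). Of 8 glucocorticoid receptor and induced genes, 2 were higher and 2 lower at 2 kPa (19.9% of all genes changed). At 20 kPa 2 were higher and 3 lower (33.3%). Tsc22d3, also known as GILZ, was higher at both (0.59, edgeR adjusted p = 0.000432; 0.61, 0.000181), whereas Fkbp5, which encodes a co-chaperone of the same receptor, was lower at both (-0.31, 0.00779; -0.32, 0.00362). Zbtb16 was lower at 2 kPa and higher at 20 kPa (-1.002, edgeR adjusted p = 6e-04; 0.67, 0.00723), and Sgk1 the reverse (0.29, 0.0327; -0.76, 7.54e-05). Sgk1 was also the 1 list gene that passed for stiffness on viscoelastic gels (-0.36, edgeR adjusted p = 0.0464), and 0 genes of its list passed there with a replicate block.

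**Figure D4:**
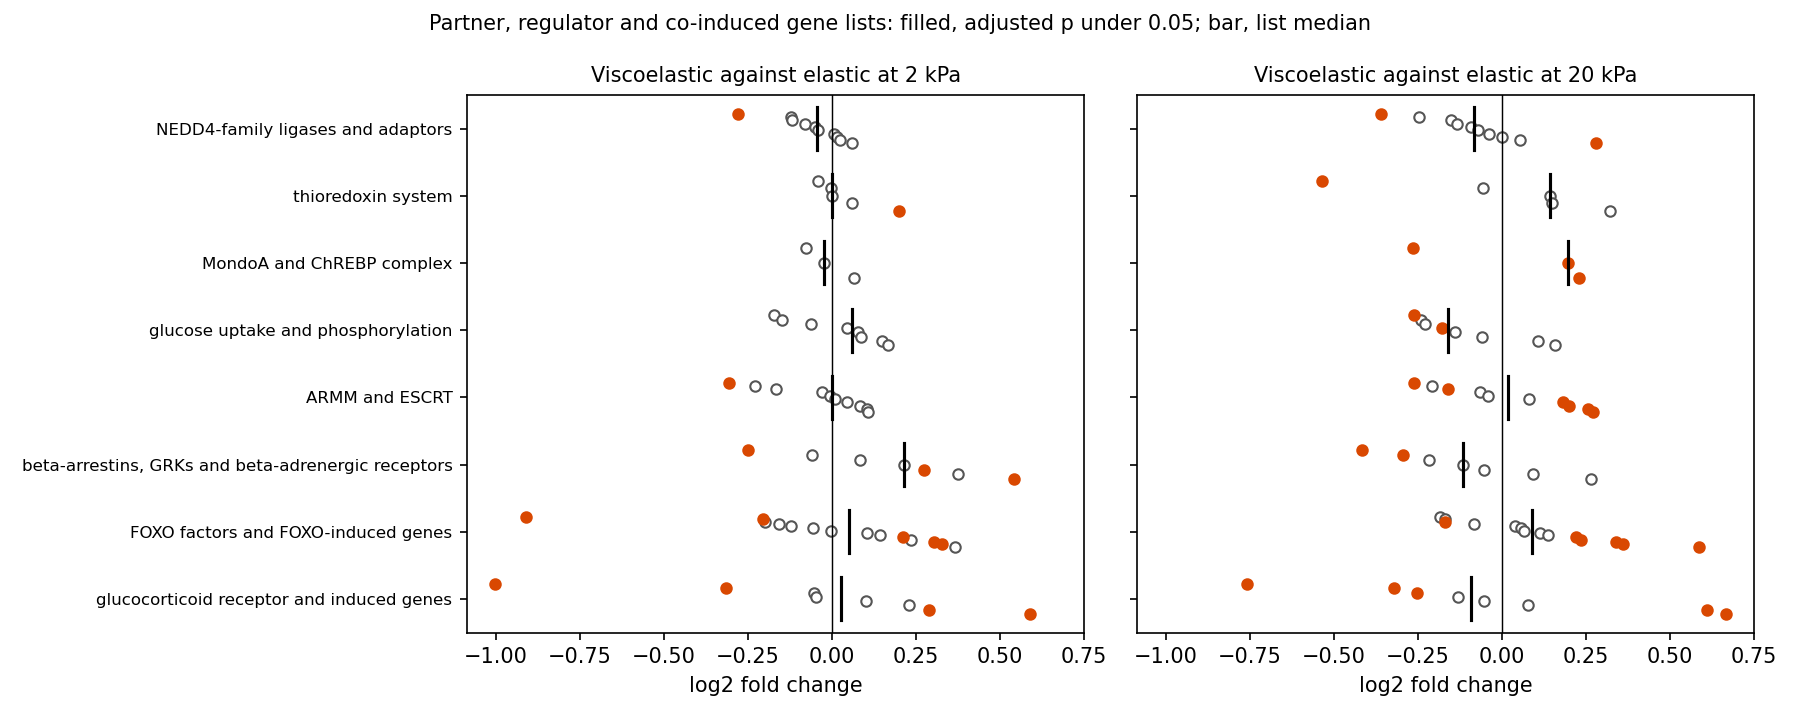
Log2 fold change (horizontal axis) of viscoelastic against elastic gels at 2 kPa (left) and 20 kPa (right) for the 65 tested genes of the 8 lists (vertical axis). Each point is a gene, filled where the edgeR adjusted p was under 0.05, and bars are list medians; at 20 kPa the filled points lie on both sides of 0 in 5 of the 8 lists.

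The genes whose pattern over the 12 samples was most like that of a member were found by Pearson's r of log2 CPM, as a description. For Arrdc3 these were Sun1 (0.961), Rpn2 (0.953), Sh2d5 (0.945), Sdc4 (0.942), Stom (0.939), Wdr90 (0.934), Ganab (0.934), Rnf223 (0.93), Clcn7 (0.93) and Pofut1 (0.929). Sun1, Rpn2, Sh2d5 and Stom were also in the top 10 by Spearman's rho, and Rnf223 averaged only 0.15 CPM. The highest for Txnip was Mknk1 (0.904), for Arrdc2 Pld2 (0.924), for Arrdc4 Pcbp2 (0.934) and for Arrdc1 Itga7 (0.881). All samples of a group share its gel. No member was in the list of another, and r between members ran from -0.587 for Arrdc3 with Arrdc4 to 0.579 for Arrdc2 with Txnip. With the group means removed it ran from -0.605 for Arrdc3 with Arrdc4 to 0.692 for Arrdc1 with Arrdc2, and Arrdc3 with Txnip went from -0.488 to 0.69.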

How the data were processed

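The labels place the 12 RNA-seq samples in 4 groups of 3. The authors trimmed reads with Trimmomatic, used STAR for alignment to mm10 and featureCounts with GENCODE for counting, and deposited raw counts without normalization. The annotation release, strand setting and treatment of multi-mapping reads are not given in the sources used here.

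The tests used edgeR 4.0.16 (R 4.3.3; filterByExpr, minimum count 10 and minimum total 15; TMM; robust quasi-likelihood F test over all 12 samples, 1 coefficient per group), with Benjamini-Hochberg adjustment over 14542 genes. CPM for likeness had a prior count of 2. The biological coefficient of variation was 7.5%. Alternatives were DESeq2 1.42.0, its size factors, total counts, no filter, a replicate block, fits of the groups compared alone, a threshold of 0.01 and leaving out each sample. The script was tested on simulated data. Gene positions and exon lengths came from GENCODE M21 of GRCm38 (mm10), and promoters from RefSeq.

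The 5 members and all lists were chosen with earlier results of these data known. The text names the members, a set of core partners, and of each list at most the 3 genes with the lowest adjusted p per direction; the contrasts of mean effects were added after values were seen. Other assays of the study were not analysed here.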

Additional observations from a re-analysis of the deposited data

Results flagged for a closer look

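Groups of 3 samples were not screened for single deviating samples. For 6 genes of the partner and regulator lists the viscoelastic effect at 20 kPa differed from that at 2 kPa by edgeR's interaction test, with Benjamini-Hochberg adjustment over all tested genes. This was 9.23% of the 65 list genes tested, beside 7.34% of all tested genes. For the kinase gene Sgk1 the difference was -1.05 on the log2 scale (adjusted p = 0.000164), with effects of 0.29 at 2 kPa and -0.76 at 20 kPa. For Zbtb16, a zinc finger factor, it was 1.67 (adjusted p = 0.000441), from -1.002 at 2 kPa to 0.67 at 20 kPa, at group means of 0.9827 to 2.44 CPM. For Sesn1, a stress-induced sestrin, it was 0.546 (adjusted p = 0.00148), from -0.21 to 0.34. The ligase gene Nedd4l differed by 0.334 (adjusted p = 0.0381), and with a replicate block 0 genes of its list passed this test. Cited2 differed by -0.51 (adjusted p = 0.0303) and Foxo3 by 0.292 (adjusted p = 0.0322). The FOXO list, which holds Sesn1, Cited2 and Foxo3, had 2 genes called with the block. Among the tested members, 0 differed at an edgeR adjusted p under 0.05, and Arrdc2 came nearest, with an unadjusted p of 0.0292.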

How the results depend on the processing

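The fall of Arrdc3 at 2 kPa kept its call in all 19 alternatives (log2 fold change -0.361 to -0.264, edgeR or DESeq2 adjusted p 0.00173 to 0.038). With Arrdc3 counted, members called at 2 kPa numbered 2, 1 at a threshold of 0.01, and 1 to 2 with single samples left out. Arrdc2 ranged from 0.348 to 0.546 in the latter. At 20 kPa the count was 0 and became 1 (Txnip) with total counts alone. For the mean viscoelastic effect the count was 1, 0 at a threshold of 0.01, and 0 to 2 with single samples left out (Txnip 0.103 to 0.144). Effects near 0 changed sign. With single samples left out, Arrdc1 reached 0.0688 at 2 kPa (-0.138 to 0.0688) and 0.00669 in the mean viscoelastic effect (-0.0967 to 0.00669), Arrdc4 reached -0.0186 at 2 kPa (-0.0186 to 0.239), and Arrdc2 at 20 kPa ran from -0.15 to 0.0499. In the interaction the ranges were -0.124 to 0.0827 for Arrdc1, -0.0621 to 0.196 for Arrdc4 and -0.0297 to 0.0491 for Txnip. Arrdc2 at 20 kPa was 0.0168 with total counts alone, and the interaction of Txnip was -0.00429 with DESeq2 size factors and -0.00401 with DESeq2; the cause was not tested. Taken over all groups, the replicate numbers did not pair the samples (mean correlation -0.0248 over 18 same-numbered pairs, 2 of them over 0.1). Of 12 samples, 5 correlated best with their own number. Both pairs over 0.1 joined 2-kPa and 20-kPa viscoelastic samples (0.184 for replicate 1, 0.308 for replicate 2, and 0.0483 for replicate 3). Pairing within the viscoelastic gels alone was not tested. With the replicate block 2 members were called at 2 kPa and 0 at 20 kPa, the mean effect called 1 (Txnip, adjusted p = 0.0432), and no member's call changed. Over all tested genes, 20 against 2 kPa on viscoelastic gels called 337 genes, 757 with DESeq2, 156 with the block, 38 in a fit of these groups alone, 10 at a threshold of 0.01 and as few as 8 without 20-kPa viscoelastic replicate 3. The threshold of 0.01 gave 1348 genes against 2890 at 2 kPa, 2727 against 4848 at 20 kPa, 850 against 2035 for stiffness on elastic gels, 398 against 1067 for the interaction, 3719 against 5829 for the mean viscoelastic effect and 318 against 1498 for the mean stiffness effect. Of the counts per list under other scalings or the block, 144 stayed within 1.5 times and 24 did not. No scaling moved the median of all genes by over 0.1 on the log2 scale. Of the members, Arrdc1 and Arrdc2 were limited most by depth, with counting error above 7.4% of the mean count.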
